A study of Homo sapiens with 8 samples.

Results

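The m6A peaks assigned to 10 genes of the epithelial-mesenchymal transition (EMT) were described in U251 cells, an established human glioblastoma cell line. The genes were the transcription factors SNAI1, SNAI2, TWIST1, TWIST2, ZEB1 and ZEB2, the cadherins CDH1 and CDH2, the intermediate filament gene VIM and the matrix metalloproteinase gene MMP2. They were chosen by name as regulators and markers of the transition, and every row of the deposited peak list that carried one of these names was taken. The rows numbered 24 of the 42272 in the list and belonged to 8 of the 10 genes, among 16701 gene names in all.

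In EMT, epithelial cells lose their junctions and polarity and take on the shape and motility of mesenchymal cells. The factors of the SNAI, TWIST and ZEB families drive this change, in part by repressing CDH1, which encodes the junctional protein E-cadherin. CDH2 encodes N-cadherin and VIM encodes Vimentin, and both are classical mesenchymal markers, although neural and glial cells make them without passing through an epithelial state. N6-methyladenosine (m6A) is a base modification of mRNA that is often found around stop codons and in the 3′UTR. MeRIP-seq maps it by sequencing RNA fragments pulled down with an antibody against m6A beside the unselected input.

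The labels named 8 libraries of U251 cells transfected with a control siRNA (si-NC) or with an siRNA against HNRNPC (si-HNRNPC), an RNA-binding protein that serves as an m6A reader. They fell into 4 groups of 2, namely si-NC input, si-HNRNPC input, si-NC at 48 h and si-HNRNPC at 48 h, and the labels did not say whether the 48 h libraries were immunoprecipitates. One peak list without a value per library was analysed. It was titled as siRNA immunoprecipitate against siRNA input, without saying which siRNA was meant. Whether its peaks came from si-NC cells, si-HNRNPC cells or both is therefore unknown. No value below compares si-HNRNPC with si-NC, the spread between replicates is unknown, and so is the depth. For each peak the list gave a position, exon blocks, a gene, a region, a fold enrichment (the linear ratio of immunoprecipitate to input), a p-value and a false discovery rate (FDR).

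All 24 EMT peaks had an FDR under 0.05, as did 81.6% of the whole list, and 22 of the 24 had an FDR under 0.001 against 62.0% of the whole list. Each of the 8 genes had at least 1 peak with an FDR under 0.001, where 76.7% of all genes in the list did. The fold enrichment of the 24 peaks ran from 1.34 to 21.8 with a median of 4.71, beside a median of 5.45 over the list. The upper end was held by transcription factors and the lower end by MMP2. SNAI1 reached 21.8 and ZEB1 18.5, whereas no peak of CDH2 or VIM passed 5.13 and none of MMP2 passed 1.58.

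**Figure D1:**
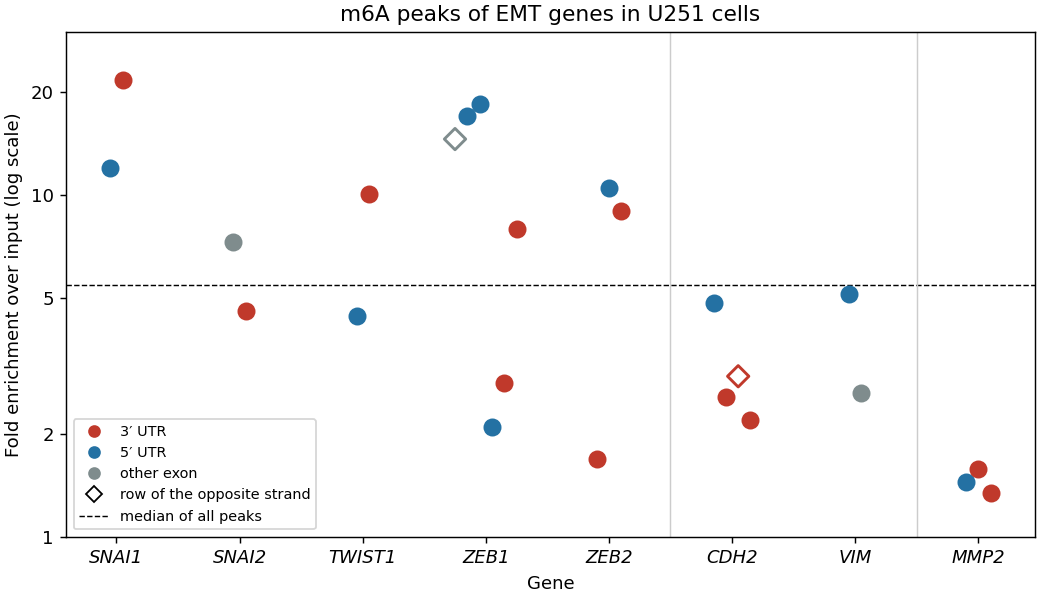
Fold enrichment over input (log scale) of each of the 24 peaks by gene, coloured by region, in order along the gene. Open diamonds are the 2 rows listed on the strand opposite to their gene, and the dashed line is the median of all peaks, 5.45. All peaks of CDH2, VIM and MMP2 lie below that line, and the transcription factors lie on both sides of it.

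SNAI1 encodes Snail, a zinc-finger repressor that binds E-boxes in the CDH1 promoter. It had 2 peaks. The peak at the start of the gene (chr20:49982980-49984110, 5′UTR, 449 exon bases) had a fold enrichment of 12.0 with a log10 p of -2.69 and a log10 FDR of -2.05. The peak in the 3′UTR (chr20:49988139-49988886, 748 bases) ended exactly at the end of the transcript and had the highest fold of the 24 peaks, 21.8, with a log10 p of -5.35. A high fold therefore stood beside modest support. Its highest fold lay at the 92.1 percentile of genes in the list, whereas its lowest p lay at the 30.2 percentile in strength. Both values belong to a series of fold enrichments that recurred in the list. The value 21.8 was printed in 172 rows, while the 10 nearest printed values had a median of 2 rows, and 12.0 was printed in 690 rows beside a median of 43.5.

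Recurring values of this kind were looked for after the list had been seen, as values with 20 or more rows and at least 5 times the median of their 10 nearest neighbours. There were 51 of them, from 2.18 to 39.2, spaced by about 1.1 between 6 and 25, and they filled 38.9% of the rows. The rows that held them had a median log10 p of -2.69, against -15.8 in the other rows. A recurring value was the highest fold of 49.1% of all genes, of 2 of the 8 EMT genes (SNAI1 and ZEB1) and of no gene among CDH2, VIM and MMP2.

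SNAI2 encodes Slug, a relative of Snail with the same DNA-binding preference. Of its 2 peaks, the one labelled as an exon outside the UTRs (chr8:48919834-48921265, 687 bases in 2 blocks) had a fold of 7.31 and a log10 p of -15.1. The 3′UTR peak (chr8:48918522-48919029, 508 bases) had a fold of 4.58, a log10 p of -7.94 and lay 924 bases short of the transcript end. In SNAI2 the 3′UTR peak was thus the lower one, whereas in SNAI1 it was the higher. Both genes covered nearly the same number of exon bases, 1197 in SNAI1 and 1195 in SNAI2. The highest fold of SNAI2 was the lowest among the transcription factors with a peak, and 58.8% of all genes in the list exceeded it.

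TWIST1 encodes a basic helix-loop-helix factor of the mesoderm and neural crest. Its 5′UTR peak (chr7:19117189-19117636, 448 bases) had a fold of 4.44 and a log10 p of -9.94. Its other peak (chr7:19115548-19117070, blocks of 584 and 400 bases) had a fold of 10.1 and a log10 p of -285. The list labels this stronger peak 3′UTR, but with reference to a long transcript (positions 19020991 to 19116924), beyond whose 5′ end the peak reached by 146 bases. The label therefore describes the peak on that transcript. The same bases also lie within the short transcript credited with the 5′UTR peak (19115468 to 19117636). There the block of 584 bases (19115548 to 19116131) lies near the 3′ end. No row was listed under TWIST2, the close paralogue of TWIST1, and none overlapped its RefSeq span.

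ZEB1 encodes a zinc-finger homeobox repressor of CDH1. It had 6 peaks, a number that 7.74% of all genes reached or exceeded, and they covered 5482 exon bases with shared bases counted once, the most of the 8 genes. The folds fell into a high group at the start of the gene and a lower group downstream. At the start, a 5′UTR peak (chr10:31318495-31319146, 450 bases) had a fold of 17.0 and a log10 p of -24.9. The next 5′UTR peak (chr10:31319206-31373071, 1587 bases in 9 blocks) had a fold of 18.5 and a log10 p of -10.9, and 18.5 is one of the recurring values, with 208 rows beside a median of 7. Far downstream, a peak labelled 5′UTR (chr10:31461040-31495788, 211 bases) lay 142545 bases from the 5′ end of its transcript and had a fold of 2.1. A peak of 539 bases labelled 3′UTR (chr10:31514666-31520621) had a fold of 2.82 and a log10 p of -42.5. The last peak, also labelled 3′UTR (chr10:31521160-31527629, 1916 bases in 3 blocks), had a fold of 7.96. It had the lowest p of the 24 peaks, with a log10 p of -302. The strongest support and the highest fold of ZEB1 thus lay at opposite ends of the gene. The ratio of its highest to its lowest fold was 8.81, the widest of the 8 genes.

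The ZEB1 start also held another row, with a fold of 14.6 and a log10 p of -172 (chr10:31317918-31319055, 1138 bases in 1 block). It began 577 bases before the 5′ end of the listed transcript, and only 49.3% of it lay inside. The rows of each chromosome ran in 2 ascending passes through the list, the first with 88.2% of its 21436 rows in plus-strand genes and the second with 86.3% of its 20836 rows in minus-strand genes. The libraries were stranded, and the pass was read here as the strand of the peak, which the list does not state. On that reading the row lay on the minus strand, opposite to ZEB1, as did 12.8% of all rows relative to their listed gene. ZEB1-AS1, a long noncoding RNA gene, overlaps ZEB1 in the RefSeq table. The 14.6 row shared 359 exon bases with the 17.0 row of the other pass. Whether the minus-strand signal came from ZEB1-AS1 was not tested. ZEB2-AS1 and VIM-AS1 overlap ZEB2 and VIM likewise, but no ZEB2 or VIM row lay in the opposite pass.

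The sequences of the ZEB1 start that lie inside the minus-strand row and in no UTR-labelled row are shown, because they are among the bases this signal adds to those of the gene's own peaks. They were taken from RefSeq windows of GRCh38.p14 around annotated start sites. Of 14247 gene names matched to RefSeq, 61.4% had a listed transcript start or end identical to that build, although the list does not name its build. SNAI1, SNAI2, TWIST1, ZEB2 and CDH2 were among them and ZEB1 was not, so the placing of the ZEB1 stretches rests on the match of the other genes. They are given 5′ to 3′ on the plus strand, with GGAC, the core of the common m6A motif, and its reverse complement GTCC in capitals. The upstream stretch is chr10:31318167-31318416 and the stretch between the blocks of the 17.0 peak is chr10:31318581-31318782.

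ZEB1 upstream: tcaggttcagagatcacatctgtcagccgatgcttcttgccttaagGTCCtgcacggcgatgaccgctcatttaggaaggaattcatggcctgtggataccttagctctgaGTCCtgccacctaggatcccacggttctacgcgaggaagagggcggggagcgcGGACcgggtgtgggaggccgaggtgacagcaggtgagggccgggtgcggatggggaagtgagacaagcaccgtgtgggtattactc

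ZEB1 between blocks: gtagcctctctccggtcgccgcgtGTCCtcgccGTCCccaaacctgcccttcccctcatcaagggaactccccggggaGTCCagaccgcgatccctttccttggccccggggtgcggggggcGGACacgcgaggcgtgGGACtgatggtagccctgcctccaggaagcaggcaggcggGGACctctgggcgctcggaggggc

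The upstream stretch of 250 bases held GGAC once on the plus strand, and the minus strand held it 2 times. In the same part of all 35116 RefSeq windows, 59.0% held it on the printed strand and 82.0% on either. The stretch of 202 bases between the blocks held it 3 times on each strand. Over the same part of all windows, 75.8% had it on either strand and 1.24% had it 6 or more times, and the stretch was 71.3% G or C against a median of 57.9%. These matches describe letters and are not mapped m6A sites.

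ZEB2 encodes the paralogue of ZEB1, known also from neural crest and glial development. It had 3 peaks. The one with the highest fold, 10.5, had a log10 p of -292 and covered 1710 bases in 3 blocks (chr2:144394446-144399794). It was labelled 5′UTR on a transcript of positions 144364364 to 144396562, but only 10.9% of it lay inside that transcript and it began 3232 bases before its 5′ end. A 3′UTR peak of 870 bases (chr2:144389203-144390595) had a fold of 8.96 and a log10 p of -256. A short peak of 151 bases (chr2:144399974-144400124), labelled 3′UTR on another transcript, had a fold of 1.69 and a log10 p of -2.99, and was one of the 2 EMT peaks with an FDR of 0.001 or more. The other was the 5′UTR peak of SNAI1. In the strength of their lowest p, TWIST1, ZEB1 and ZEB2 lay at the 88.3, 89.0 and 88.6 percentiles of the genes in the list.

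**Figure D2:**
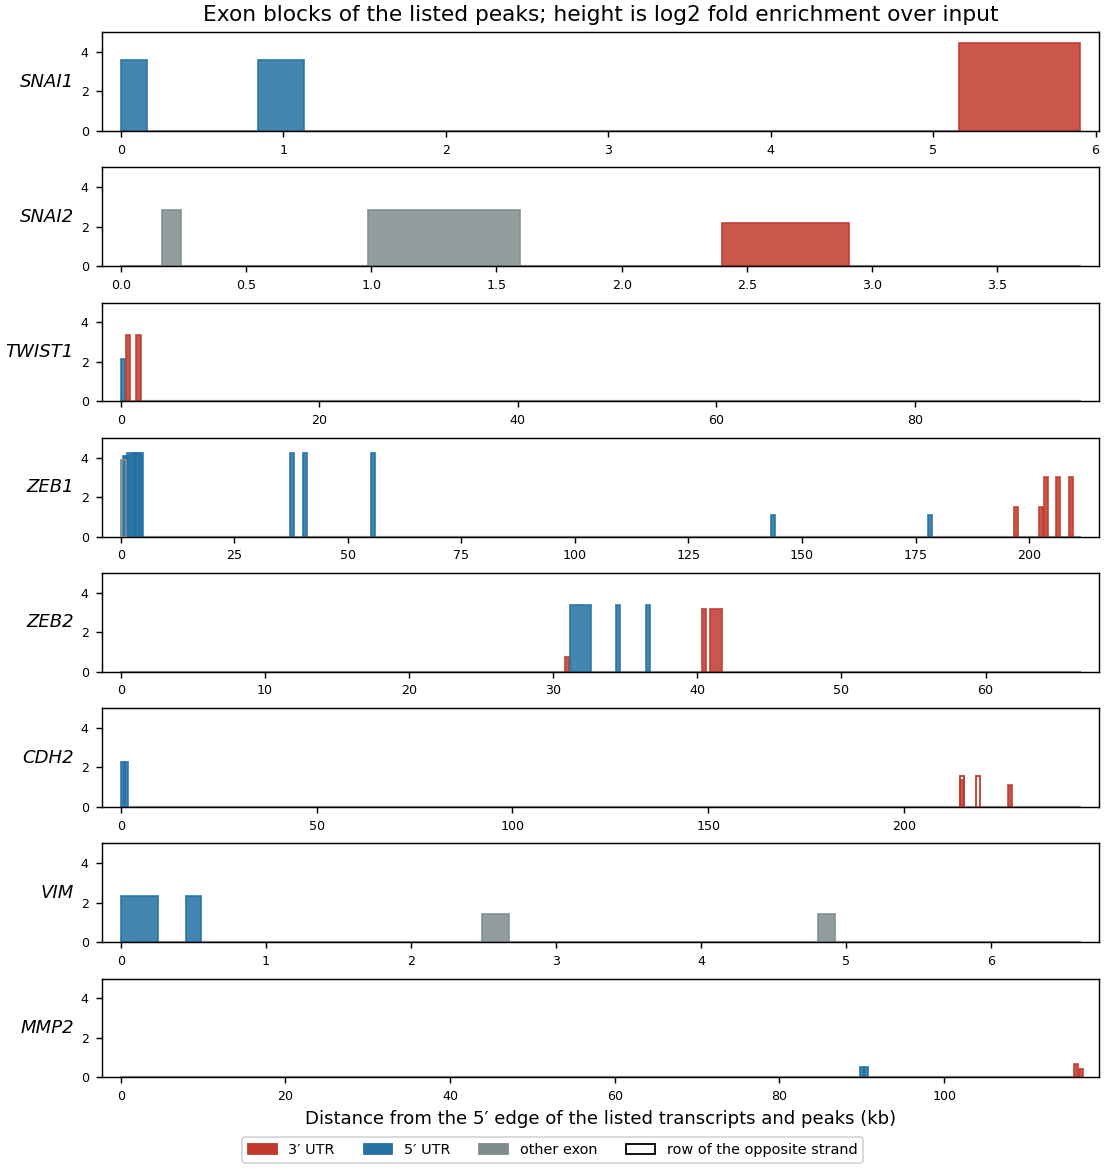
Exon blocks of the peaks along each gene, with distance from the 5′ edge in kb and bar height as log2 fold enrichment. Colours give the region, unfilled bars are rows of the opposite strand, and blocks too short to see are drawn at a minimum width. ZEB1 has its highest bars at the 5′ end, whereas SNAI1 has its highest bar at the 3′ end, and the bars of MMP2 are the lowest.

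CDH2 encodes N-cadherin, a calcium-dependent adhesion protein of mesenchymal and neural cells. It had 4 peaks, 1 labelled 5′UTR and 3 labelled 3′UTR. The 5′UTR peak (chr18:28176975-28177946, 240 bases in 2 blocks) had the highest fold, 4.84, with a log10 p of -13.3, and 65.0% of it lay inside the listed transcript. The 3′UTR peak with the lowest p (chr18:27963363-27963662, 300 bases) had a fold of 2.56 and a log10 p of -80. The peak nearest the 3′ end (chr18:27951005-27951334, 330 bases) had a fold of 2.19 and a log10 p of -9.56. The highest fold of CDH2 lay at the 22.9 percentile of genes, while its lowest p lay at the 69.8 percentile in strength.

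For comparison with the ZEB1 start, the 250 bases directly before the CDH2 start site, which lie between the blocks of the 5′UTR peak, are given from RefSeq (GRCh38.p14, minus strand, chr18:28177131-28177380), marked in the same way.

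CDH2 upstream: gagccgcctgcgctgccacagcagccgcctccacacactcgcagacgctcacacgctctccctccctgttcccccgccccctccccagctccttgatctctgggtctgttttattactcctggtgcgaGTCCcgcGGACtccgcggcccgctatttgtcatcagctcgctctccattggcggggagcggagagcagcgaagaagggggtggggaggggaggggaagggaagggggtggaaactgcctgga

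This stretch held GGAC once on each strand, in a single run with GTCC 3 bases ahead of it, and 55.3% of all windows held it as often or more. No listed block fell inside it.

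The remaining CDH2 row (chr18:27959523-27963658, 294 bases in blocks of 273 and 21) was listed in the plus-strand pass, opposite to CDH2. Its fold was 2.95 and its log10 p was -57.5, and 273 of its bases were shared with the 2.56 row of the minus-strand pass. A row between the CDH2 peaks was assigned to another gene, AC110015, although it lay in the minus-strand pass and inside the span of CDH2 (chr18:27952081-27963064, 689 bases). It had a fold of 2.52 and a log10 p of -68.8. The CDH2 rows of the same pass on either side had folds of 2.56 and 2.19. AC110015 is listed on the plus strand, and CDH2-AS1, a long noncoding RNA gene, overlaps CDH2 in the RefSeq table. A like row was found at TWIST1, where AC003986, listed on the plus strand, was credited with a row of the minus-strand pass that started at the end of the long TWIST1 transcript (chr7:19020991-19113914, 358 bases). Its fold was 4.36 and its log10 p -1.39. Which gene these rows came from was not tested.

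**Figure D3:**
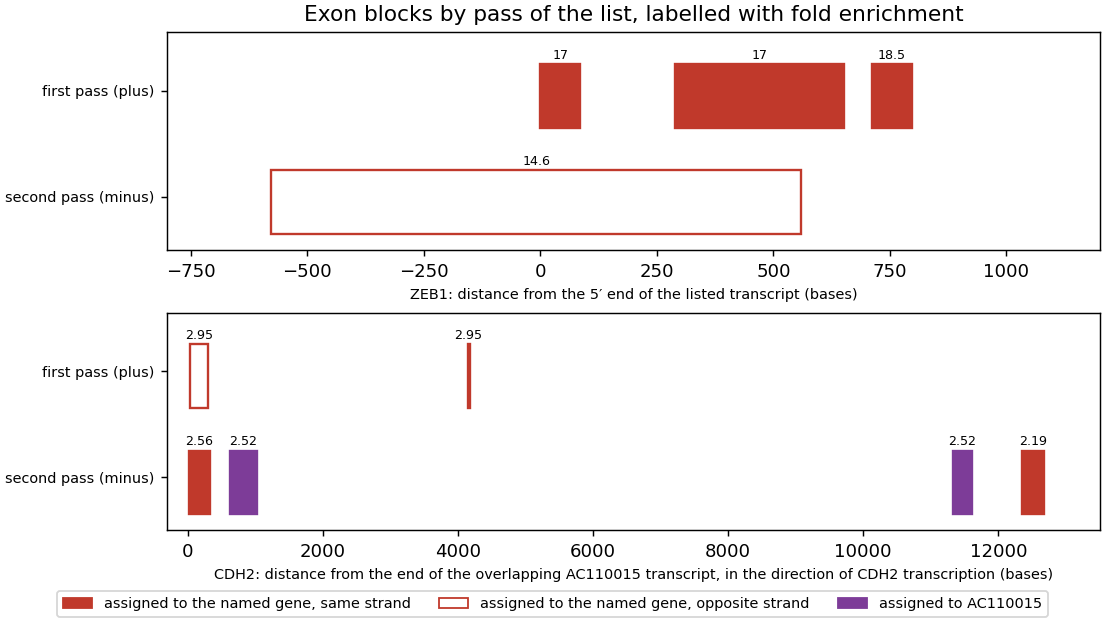
Exon blocks at the ZEB1 start (upper panel) and at the CDH2 peaks labelled 3′UTR (lower panel), separated by pass of the list. Numbers on the blocks are fold enrichments. Positions are bases from the 5′ end of the listed transcript in the upper panel. In the lower panel they are bases along CDH2 from the end of the AC110015 transcript. Filled red blocks are on the strand of the named gene, open ones on the opposite strand and purple ones are assigned to AC110015. At both genes, blocks of both passes lie over each other.

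VIM encodes Vimentin, the main intermediate filament protein of mesenchymal and glial cells. It had 2 peaks and none labelled 3′UTR. The 5′UTR peak (chr10:17228420-17228971, 360 bases in 2 blocks) had a fold of 5.13 and a log10 p of -16.3, with 73.6% of it inside the listed transcript. The other-exon peak (chr10:17230913-17233343, 300 bases in 2 blocks) had a fold of 2.64 and a log10 p of -29.9, with 39.7% inside. As in CDH2, the peak with the higher fold was at the 5′ end and the peak with the lower p was downstream. In the list, 75.3% of genes had a highest fold above that of VIM. CDH1, which encodes E-cadherin, had no row, and no row of any name overlapped its RefSeq span. An absent row does not show an unmethylated transcript, since a transcript that is not expressed also gives no peak and the list holds no expression level.

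MMP2 encodes gelatinase A, a protease that cleaves type IV collagen of basement membranes. It had 3 peaks and the lowest folds of the 8 genes. The 5′UTR peak (chr16:55479531-55480016, 121 bases) had a fold of 1.45, and only 15.7% of it lay inside the transcript it was labelled from. The 3′UTR peaks had folds of 1.58 (chr16:55505522-55505702, 181 bases) and 1.34 (chr16:55506062-55506212, 151 bases, 25 bases short of the transcript end). All had an FDR under 0.001, and the 1.58 peak had a log10 p of -48.8. The highest fold of MMP2 lay at the 1.62 percentile of genes. Among the 1000 peaks nearest to it in p, whose median fold was 5.45, the 1.58 peak lay at the 1.5 percentile.

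The comparison the member genes allow is that of the transcription factors with the cadherins and Vimentin. By region their shares differed by less than the counting errors. Of 15 transcription factor peaks, 7 were in the 3′UTR (46.7%, 95% Wilson interval 24.8 to 69.9), 6 in the 5′UTR (40.0%, 19.8 to 64.3) and 2 in other exons. Of the 6 peaks of CDH2 and VIM, 3 were in the 3′UTR (50.0%, 18.8 to 81.2), 2 in the 5′UTR and 1 in another exon. Peaks of a gene are not independent, so these intervals cover counting error only. Over all 24 peaks, 37.5% (21.2 to 57.3) were labelled 5′UTR against 23.5% of the list, 12.5% (4.34 to 31.0) other exon against 32.3%, and 50.0% (31.4 to 68.6) 3′UTR against 44.1%. The region labels depend on the transcript chosen, as at TWIST1 and ZEB2. The label 3′UTR was also given far from the listed transcript end on the genome. The 2.56 peak of CDH2 lay 30484 bases from that end and the 2.82 peak of ZEB1 8581 bases. Whether these peaks lie in a 3′UTR that the cells use was not tested. A share of 72.4% of all rows lay wholly inside the listed transcript, and 16 of the 24 EMT rows did.

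By fold enrichment the groups stood apart in the values per gene. The highest fold was 21.8, 18.5, 10.5, 10.1 and 7.31 in SNAI1, ZEB1, ZEB2, TWIST1 and SNAI2, and 5.13 and 4.84 in VIM and CDH2, without overlap. With medians over peaks, the lowest transcription factor gene had 5.95 and the higher of CDH2 and VIM 3.88. At the lowest p these values were 7.31 and 2.64. Most genes of the list also lay above CDH2 and VIM. A highest fold above that of VIM was held by 75.3% of all genes, and one above that of SNAI2 by 58.8%. The median log2 highest fold was 1.08 higher in the transcription factors. By listed label, median folds were 7.96 and 2.56 in the 3′UTR and 11.2 and 4.98 in the 5′UTR, the same direction in both. The labels depend on the transcript chosen, so this is not a comparison of verified regions. The peaks labelled 5′UTR include the 10.5 peak of ZEB2, of which 10.9% lay inside its transcript. VIM had no 3′UTR peak, so the 2.56 rests on CDH2 alone. The 3′UTR folds of CDH2 were 2.95, 2.56 and 2.19. The 2.95 row lay in the opposite pass and shared 273 bases with the 2.56 row. In the 5′UTR, CDH2 and VIM had 1 peak each. Single peaks did overlap. The transcription factor peaks ran from 1.69 to 21.8 and those of CDH2 and VIM from 2.19 to 5.13. With 5 genes against 2, and no values per library, the difference has no test and no replicate check. The folds of SNAI1 and the highest fold of ZEB1 are recurring values, and without all rows of recurring values the difference was 1.05.

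By support the groups overlapped. Per gene, the lowest log10 p was -302 in ZEB1, -292 in ZEB2 and -285 in TWIST1, stronger than the -80 of CDH2 and the -29.9 of VIM, whereas SNAI2 with -15.1 and SNAI1 with -5.35 were weaker than both. Per peak, CDH2 and VIM passed an FDR of 0.001 in 6 of 6 peaks and the transcription factors in 13 of 15. The log10 p of the transcription factor peaks ran from -302 to -2.69 with a median of -15.1, and that of the CDH2 and VIM peaks from -80 to -9.56 with a median of -23.1. Low fold thus went with firm support in CDH2, VIM and MMP2, and high fold with weak support in SNAI1. TWIST1 and ZEB2 had peaks that were high in both. In ZEB1 the peak with a log10 p of -302 had a fold of 7.96, and the 17.0 and 18.5 peaks had a log10 p of -24.9 and -10.9. The ZEB1 row high in both, with a fold of 14.6 and a log10 p of -172, lay in the opposite pass. Because p depends on the reads in a peak as well as on fold, each peak was set beside the 1000 peaks nearest to it in p. The 21.8 peak of SNAI1 lay at the 95.9 percentile of fold among them. In ZEB1 the highest peak, 18.5, lay at the 85.9 percentile, the 17.0 peak at 93.0 and the peak with the lowest p at 51.5. The highest peaks of SNAI2, ZEB2 and TWIST1 lay at 72.5, 71.8 and 69.7. Other transcription factor peaks lay low on this measure, at 7.65 in ZEB2 and at 17.1 and 19.8 in ZEB1, and the 15 peaks spanned 7.65 to 95.9. The 5′UTR peaks of VIM and CDH2 lay at 63.2 and 56.9, and their other 4 peaks between 9.55 and 21.1, so the peaks of both groups overlapped widely. The 3 peaks of MMP2 lay between 1.2 and 2.7.

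**Figure D4:**
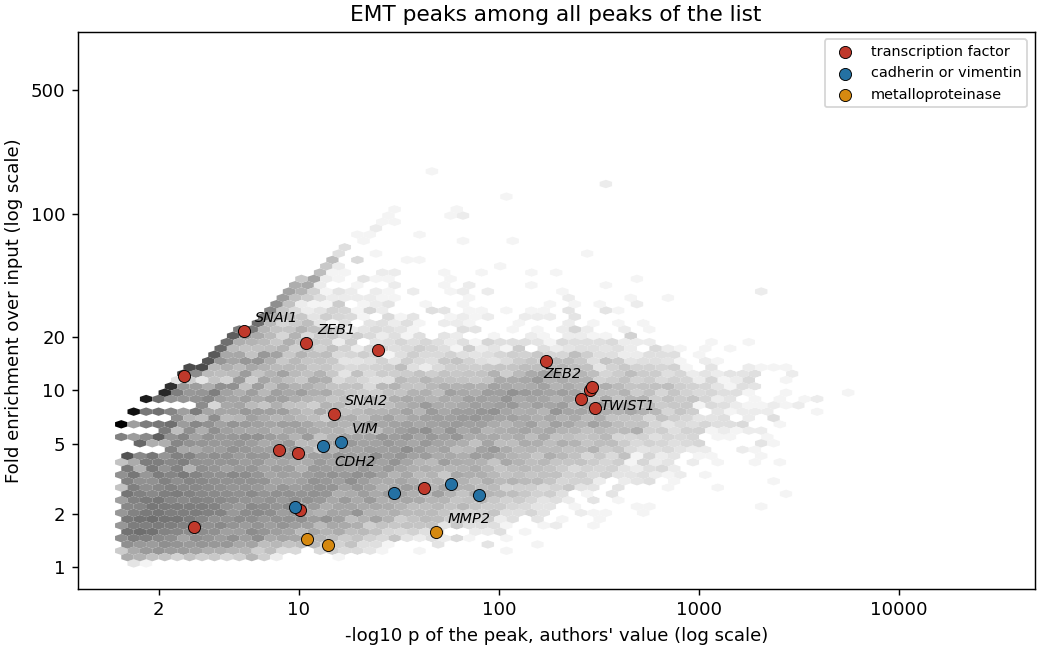
Fold enrichment against the negative log10 p of each peak, both on log axes, with all 42272 peaks in grey (darker where more peaks fall) and the 24 EMT peaks coloured by role, each gene named at its highest fold. SNAI1 sits on the upper left edge of the cloud and MMP2 near its lower edge, and the EMT peaks furthest to the right belong to TWIST1, ZEB1 and ZEB2.

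The peaks also differed in breadth. Transcription factor peaks covered a median of 687 exon bases (151 to 1916), those of CDH2 and VIM a median of 300 (240 to 360) and those of MMP2 a median of 151. The median of the whole list was 405. With each base counted once, the exon bases covered were 5482 in ZEB1, 2731 in ZEB2, 1432 in TWIST1, 1197 in SNAI1, 1195 in SNAI2, 891 in CDH2, 660 in VIM and 453 in MMP2. Without the rows of the opposite strand they were 4703 in ZEB1 and 870 in CDH2.

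To place these genes in the pathway, 61 further EMT genes were looked up by role. A peak was listed for 50 of them (82.0%, 95% Wilson interval 70.5 to 89.6), and the median of their highest folds was 8.29, beside 8.31 over all genes. The list names only genes with a peak. It therefore gives no share over all genes to set beside the 82.0% or the counts with a peak by role, which cannot be called high or low. An FDR under 0.001 was reached by 42 of the 50, and the counts at that FDR by role are to be read against the 76.7% of all listed genes. The 12 other transcription factors of the transition all had a peak, 11 of them with an FDR under 0.001. Their highest folds ran from 2.9 to 27.2 with a median of 12.0, and the lowest lay below those of CDH2 and VIM. Among these 12 factors, SNAI3, the least studied SNAI member, and FOXQ1, a forkhead factor, had the highest fold, 27.2 in both, which is a recurring value. PRRX1, a homeobox factor of the limb mesenchyme, had 7 peaks. TCF4, FOXC1 and HMGA2 had 3 each, as did SNAI3, with highest folds of 7.95, 15.9 and 6.4 in TCF4, FOXC1 and HMGA2.

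Of 21 epithelial markers and regulators, 16 had a peak and 13 had one with an FDR under 0.001, with a median highest fold of 9.18. The claudin genes CLDN7 and CLDN4, which encode tight-junction proteins, reached 21.8 and 13.1, and OVOL2, an epithelial repressor of ZEB1, reached 13.1. These 3 values are recurring ones. CTNND1, which encodes p120-catenin, had 11 peaks with folds up to 5.26, and TJP1, which encodes ZO-1, had 6. The 5 without a row were EPCAM, JUP, KRT19, GRHL2 and OVOL1, named because they had none. Of 15 mesenchymal markers, 13 had a peak and 10 had one with an FDR under 0.001, with a median highest fold of 7.54. Their highest folds ran from 1.18 to 15.3 and overlapped those of the other transcription factors widely. CDH11, a mesenchymal cadherin, had 8 peaks with folds up to 10.9, a recurring value (10.7 at an FDR under 0.001), and TNC, an extracellular matrix protein abundant in glioma, reached 9.03. CD44, a hyaluronan receptor, and TAGLN, an actin-binding protein, had 4 peaks each, with highest folds of 7.63 and 7.54. The 7.63 of CD44 is a recurring value, and its highest fold was 3.63 at an FDR under 0.001. In highest fold CDH2 and VIM lay below the median of these markers, but with medians over peaks the markers had 2.94, and VIM lay above that with 3.88 and CDH2 below with 2.75.

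Of 13 proteases and protease inhibitors, 9 had a peak and 8 had one with an FDR under 0.001, with a median highest fold of 9.62, which was 3.11 with medians over peaks and 3.41 at the lowest p. TIMP2, which inhibits MMP2 and also takes part in its activation, had 9 peaks and a highest fold of 30.5, a recurring value, but a fold of 3.24 at its lowest p. MMP15, a membrane-bound metalloproteinase, had 1 peak with a fold of 14.3, and ADAM10, a sheddase of N-cadherin and CD44, had 5 with folds up to 9.62. MMP2, at 1.58, had a highest fold below the lowest of this group, 2.1.

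**Figure D5:**
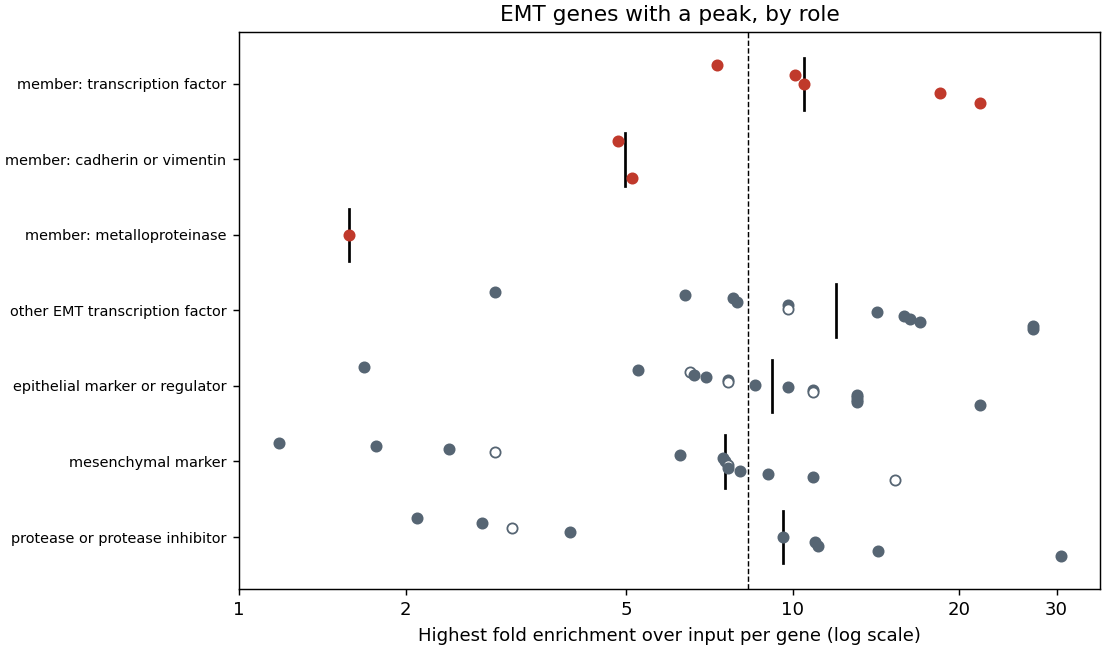
Highest fold enrichment per gene (log scale) for genes with a peak, by role, with the EMT genes described above in red and the wider list in grey. Black bars are role medians, open points are genes without a peak of FDR under 0.001, and the dashed line is the median of all genes, 8.31. The red points of 4 of the 5 transcription factors lie to the right of the line, and those of SNAI2, CDH2, VIM and MMP2 to the left.

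Of cell type markers, 7 of 9 astroglial and glioma markers and 6 of 9 epithelial markers had a peak, 7 and 5 of them with an FDR under 0.001. FABP7 and ALDH1L1 were the astroglial genes without one. Of the genes in the list, 76.7% had a peak with an FDR under 0.001. The list names only genes with a peak, so it gives no share over all genes to set beside the counts of 9. A peak shows that a transcript was enriched and not how much of it the cells held, so these counts do not separate cell types and the label of the cell line could not be checked from this list.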

How the data were processed

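MeRIP-seq libraries of U251 cells were prepared by the authors from fragmented poly(A) RNA with stranded kits. Of the tools, fastp and HISAT2 are named in the notes on processing that the submitters gave, with no version. The peak caller, genome build and annotation, details not given in the sources used here, are unknown. One table of 24 columns was deposited. Its fold is a linear ratio made by the authors, immunoprecipitate over input, whose scaling to depth is not stated. The deposited p-value of a peak (never above 0.05) came with log10 versions of p and of the FDR, all made by the authors. No column gives a value per library.

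Rows were taken by gene name. Exon blocks were rebuilt from block sizes and starts, region labels were kept as listed, and each gene was represented by its highest fold, its median fold and the fold at its lowest p. Percentiles count ties at the midpoint. The strand of a row was read from its pass in the list. Motifs were searched in RefSeq start-site windows of GRCh38.p14, which held 12 windows of 5 of the 10 genes. Shares carry 95% Wilson intervals. No test was made, since genes and peaks are not replicates and none of the values belongs to a library.

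The genes named are the 10 EMT genes, in each role of the wider list the 2 with the highest fold at an FDR under 0.001 and the 2 with the most peaks, ties included, and genes whose rows lie over an EMT gene on its strand. A gene that this rule also selects is not reported here by name. Members, lists and roles were chosen with earlier results of these data known. Alternatives were other FDR thresholds, values per gene, units of counting and assignments. Reading of passes, block rebuilding, shared bases and intervals were tested on simulated rows. Python 3.11.15, pandas 2.3.3, NumPy 2.4.6, SciPy 1.17.1 and matplotlib 3.10.9 were used.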

Additional observations from a re-analysis of the deposited data

How the results depend on the processing

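No paired analysis was possible because the peak list holds no values per library. Leaving out a replicate was not possible either. The number of EMT rows was 24 at an FDR under 0.05, 22 at an FDR under 0.001 and 22 with overlapping rows merged. The 3′UTR share rose from 50.0% to 77.8% over the 9 peaks of a single block and to 68.8% over the 16 rows wholly inside their transcript, the latter chosen after seeing the data. The log2 difference between the transcription factors and the cadherins with Vimentin was 1.08 with the highest folds, 1.45 with the medians over peaks, 1.96 with the folds at the lowest p and 1.12 with MMP2 added to the lower group. It was 1.05 without recurring values and 1.05 without SNAI1, both chosen after seeing the data. Both leave out SNAI1, whose folds are all recurring values, so they are not separate checks. In each of the settings given for this difference, every transcription factor gene with a value lay above every gene of the other group. The median of the highest folds of the EMT genes was 8.71, and it was 6.61 with medians over peaks, 7.63 at the lowest p and 7.31 without recurring values, which leaves 7 genes. The median of the wider list, 8.29, became 5.89 with medians over peaks, where all genes had 5.99, and 7.79 at an FDR under 0.001, where all genes had 8.17. The cause of these shifts was not tested. Depth is unknown, so no limit of detection can be given for TWIST2 or CDH1.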
